A study of Mus musculus with 13 samples.

Results

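The collagen chain genes of the mouse were followed through 13 mouse NUT carcinoma (mNC) tumors. Members were the protein-coding genes whose GENCODE symbol is written as Col, a number, the letter a and a number, as in Col1a1 or Col17a1. The rule used names alone and found 44 genes on 15 chromosomes, all of them among the 55332 genes with values in the table. By known structure, 11 were grouped as fibrillar chains, 10 as chains of the basement membrane and its anchoring structures, and 23 as other chains.

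NUT carcinoma is a poorly differentiated squamous cancer. In the mNC model the allele named NCT carries the sites at which Cre recombinase makes a chromosome translocation, at low frequency, so that each tumor grows as a clone among host cells that keep their normal chromosomes. The groups were 4 oral Sox2 WT tumors (KRT14-Cre; NCT+/-), 2 oral Sox2 KO tumors (labelled KRT4Cre; NCT+/-; Sox2fl/fl, where the WT label reads KRT14-Cre), 4 pancreatic Sox2 WT tumors (Pdx1-Cre; NCT+/-) and 3 pancreatic Sox2 KO tumors (Pdx1-Cre; NCT+/-; Sox2fl; fl). All 13 tumors therefore carried a Cre driver and 1 NCT allele, and the KO tumors in addition carried floxed Sox2, the gene of a transcription factor of basal progenitor cells. The labels give no age, and no label says that each tumor came from its own animal, so that p-values measure the spread between these tumors. Cre acts in the lineage of its promoter alone, the keratin 14 promoter in basal cells of stratified epithelium and the Pdx1 promoter in the pancreatic lineage, and stromal cells outside those lineages keep Sox2. Because each tissue had its own driver, tissue and driver cannot be told apart.

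Collagens are trimers of chains wound into a helix, secreted as procollagens, trimmed by proteinases and crosslinked by lysyl oxidases. Fibrillar collagens form the fibrils that bear load in connective tissue, bone and cartilage and are made mainly by fibroblasts, osteoblasts and chondrocytes, whereas type IV collagen forms the network of basement membranes beneath epithelia and around vessels. Carcinoma cells of squamous type make some chains themselves, among them Col17a1, a transmembrane collagen of the hemidesmosome, and the stroma around them makes most of the rest. In RNA from whole tumors, fewer cells of a type and less RNA per cell cannot be told apart.

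Total estimated counts ranged from 29394258 to 40420228 in oral WT tumors, from 40964533 to 46134830 in pancreatic WT tumors and from 89562790 to 120482829 in pancreatic KO tumors, and were 11735315 and 20432164 in oral KO tumors 1 and 2, so that depth parted KO from WT in both tissues, in opposite directions. Sox2 was read at 9.05 to 34.1 CPM, which are counts scaled to library size, in the 8 WT tumors and at 0 to 0.0390 CPM in the 5 KO tumors. Genes that code for protein held 59.5% of the counts in oral KO tumor 1, against 84.5% in oral KO tumor 2 and 85.1% to 91.7% in the other 11 tumors. Krt5, a keratin of basal squamous cells, was read at 1136 CPM or more in all 13 tumors. Levels below are CPM scaled with trimmed mean of M-values (TMM) factors, and levels of different genes are compared only per kilobase of the longest annotated transcript.

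**Figure D1:**
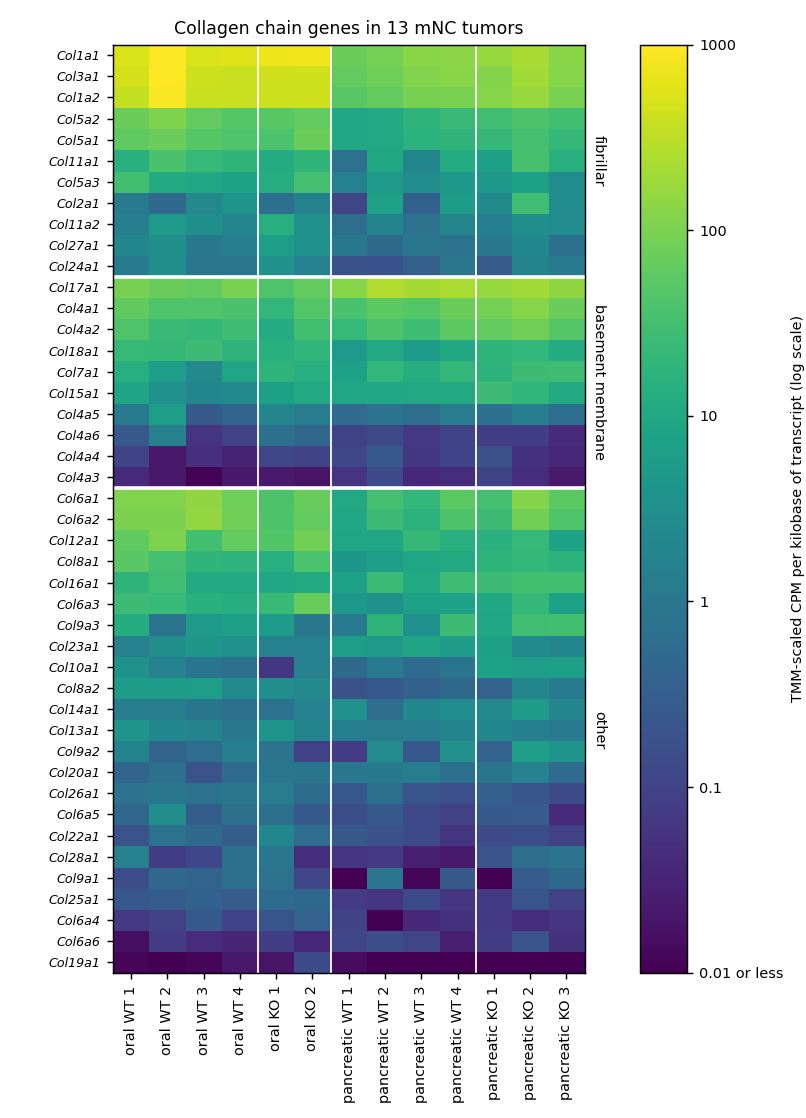
Level of each of the 44 collagen chain genes (rows, grouped by class and ordered by mean level) in each of the 13 tumors (columns), as TMM-scaled CPM per kilobase of transcript on a log color scale. The genes Col1a1, Col3a1 and Col1a2 are brightest in the 6 oral tumors, and Col17a1 is brighter in the 7 pancreatic tumors than in the oral ones.

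The promoters of both members higher in pancreatic KO tumors and of an abundant fibrillar chain are printed because Sox2 encodes a factor that binds DNA at a short SOX core. RefSeq promoter windows on GRCm38.p6 were at hand for 35 of the 44 members. The 250 bases before the annotated start are shown for Col10a1 (chr10:34389731-34389980, plus strand) and Col28a1 (chr6:8192618-8192867, minus strand), the members higher in pancreatic KO than WT tumors, and for Col3a1 (chr1:45311288-45311537, plus strand), an abundant member higher in oral than pancreatic WT tumors. Each is read 5′ to 3′ on the strand of the gene, and capitals mark matches on either strand. The letters searched were a TATA box, spelled TATAAA, and a pair of SOX cores. The longer SOX core was spelled ACAAAG. The shorter SOX core was spelled ACAAT and may overlap its own reverse.
Col10a1: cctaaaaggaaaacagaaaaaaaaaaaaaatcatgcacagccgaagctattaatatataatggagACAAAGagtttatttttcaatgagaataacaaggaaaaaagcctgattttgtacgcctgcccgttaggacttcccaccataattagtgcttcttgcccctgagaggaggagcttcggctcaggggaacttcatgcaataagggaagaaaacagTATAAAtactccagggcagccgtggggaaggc
Col28a1: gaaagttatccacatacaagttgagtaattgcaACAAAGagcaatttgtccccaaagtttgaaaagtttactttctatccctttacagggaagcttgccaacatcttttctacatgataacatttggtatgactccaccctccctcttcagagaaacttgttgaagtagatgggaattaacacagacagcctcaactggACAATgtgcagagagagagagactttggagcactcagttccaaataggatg
Col3a1: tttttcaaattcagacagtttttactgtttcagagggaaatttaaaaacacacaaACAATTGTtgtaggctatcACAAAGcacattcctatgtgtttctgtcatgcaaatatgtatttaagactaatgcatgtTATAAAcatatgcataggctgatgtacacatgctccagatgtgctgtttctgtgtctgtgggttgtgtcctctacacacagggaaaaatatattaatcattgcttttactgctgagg
The window of Col10a1 held TATAAA 32 bases before the start and ACAAAG 185 bases before it. The Col28a1 window held ACAAAG at 217 and ACAAT at 51 bases before the start, and no TATAAA. In the Col3a1 window, ACAAAG lay 176 bases and TATAAA 117 bases before the start, with ACAAT on both strands at 195 and 192. Over all members, 4 of 38 windows held ACAAAG, 2 held ACAAT and 5 held TATAAA. The same letters occurred in 16.5%, 27.7% and 12.4% of the 32851 windows of all genes. Every window printed held a SOX core, and the only other member window with one was that of Col20a1. The windows of Col1a2, Col8a2, Col17a1 and Col18a1 held none. A match of letters is a description of the sequence and not a binding site.

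Collagen chains took a far larger part of the RNA in oral than in pancreatic tumors. Their share of all counts was 1.20% to 2.58% for oral WT, 1.04% and 1.82% for oral KO, 0.254% to 0.552% for pancreatic WT and 0.574% to 0.917% for pancreatic KO tumors. The ranges of the pancreatic groups do not overlap, and both lie below every oral tumor.

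The make-up of the collagen also differed by tissue. Per kilobase, fibrillar chains made up 70.3% to 84.7% of all collagen in the 6 oral tumors and 34.7% to 47.5% in the 7 pancreatic tumors. Basement membrane chains made up 4.47% to 11.0% in oral and 29.9% to 48.4% in pancreatic tumors. In both classes, each oral tumor lay beyond each pancreatic tumor. Other chains made up 9.53% to 22.7% over all tumors, with the tissues overlapping. By mean level per kilobase, the order in oral WT tumors was Col1a1, Col3a1 and Col1a2, whereas in pancreatic WT tumors it was Col17a1, Col1a1 and Col3a1.

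The levels per kilobase show how steep the order was. Col1a1, the main chain of type I collagen of skin and bone, stood at 717 ± 358 CPM per kilobase in oral WT and at 109 ± 29.6 in pancreatic WT tumors (SD, n = 4 each). Col17a1 stood at 82.2 ± 17.8 in oral WT and at 206 ± 56.8 in pancreatic WT tumors (SD, n = 4 each). In the pancreatic WT tumors the ranges of Col17a1, from 124 to 253, and of Col1a1, from 75.4 to 136, overlapped, although Col17a1 was the higher in each of the 4 tumors. The chains Col6a1 and Col6a2 of type VI collagen, which forms beaded filaments near cells, were the highest of the other class by the mean over all tumors, whereas in oral KO tumors Col12a1 ranked above both. The lowest member was Col19a1, with 0 to 19 counts in a tumor, and it was too low to be tested in any comparison.

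**Figure D2:**
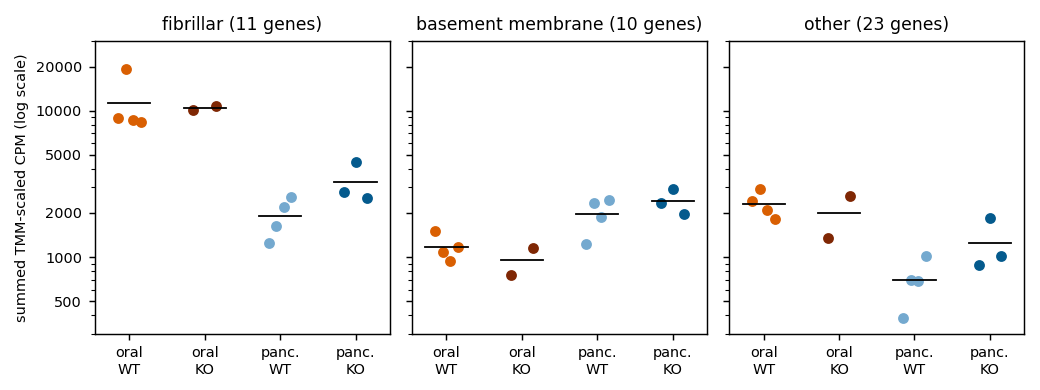
Summed TMM-scaled CPM (log axis) of the 11 fibrillar, 10 basement membrane and 23 other chains, with 1 point per tumor and a line at the mean of each group. Fibrillar chains sum to 8398 to 19336.5 CPM in oral WT tumors and to 1254 to 2554 CPM in pancreatic WT tumors, and oral WT tumor 2 stands above the other oral tumors in the fibrillar panel.

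To see how the tissues differ without the deletion, oral WT tumors were compared with pancreatic WT tumors. Of 43 members tested, 18 were higher and 2 lower in oral tumors where a call needed an adjusted p below 0.05 with a log2 fold change beyond 1 in size, whereas 9.30% of all genes tested were called higher and 7.24% lower. Among the fibrillar chains 7 of 11 were higher and none lower, among the basement membrane chains 1 of 10 was higher and 1 lower, and among the other chains 10 of 22 were higher and 1 lower. The median log2 fold change was 1.34 over the members and 0.0046 over all genes tested. At an unadjusted p under 0.05 there were 30 members, 23 higher and 7 lower, and 36.8% of all genes. DESeq2 called 22 members higher and 5 lower, against 10.7% and 8.65% of all genes. In 18 members every oral tumor lay above every pancreatic tumor and in 4 below, against 14.2% and 13.8% of all genes.

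Type I and type III collagen carried most of the difference in amount. Col1a1 was read at 3072, 7430, 3155 and 3340 CPM in oral WT tumors 1 to 4 and at 447, 546, 779 and 804 CPM in pancreatic WT tumors 1 to 4. The groups did not overlap, and oral tumor 2 stood above the others at more than their whole range. The log2 fold change of Col1a1 was 2.72 (SE 0.36, edgeR adjusted p = 0.00155). Its partner chain Col1a2 differed by 2.70 (SE 0.37, edgeR adjusted p = 0.00197) and Col3a1, the chain of type III collagen of skin and vessels, by 2.55 (SE 0.37, edgeR adjusted p = 0.00223). Without oral WT tumor 2 these log2 fold changes were 2.31, 2.27 and 2.15, and 16 members were called higher and 1 lower.

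The minor fibrillar chains of type V collagen, which sets fibril diameter, were higher by 2.00 for Col5a1, 2.22 for Col5a2 and 2.08 for Col5a3 on the log2 scale (edgeR adjusted p = 0.00138, 0.00325 and 0.0199). Col27a1, a fibrillar chain of cartilage, was higher by 1.20 (edgeR adjusted p = 0.0384), although its groups overlapped, with 7.86 to 22.8 CPM in oral and 4.15 to 8.02 CPM in pancreatic tumors. Of the 11 fibrillar chains, 10 had a positive log2 fold change. The exception was Col2a1, the main collagen of cartilage, which ranged from 2.59 to 19.3 CPM in oral and from 0.577 to 36.5 CPM in pancreatic WT tumors, and its log2 fold change of -0.80 did not pass the test (edgeR adjusted p = 0.65).

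The largest differences were in short-chain and other non-fibrillar members. Col8a2, a chain of the hexagonal network of type VIII collagen, was read at 25.6, 25.2, 26.2 and 10.5 CPM in oral WT tumors 1 to 4 and at 0.761, 1.05, 1.46 and 2.17 CPM in pancreatic WT tumors 1 to 4. The groups lay far apart, with oral tumor 4 the lowest of its group. The log2 fold change was 4.00 (SE 0.42, edgeR adjusted p = 0.000765), and that of its partner chain Col8a1 was 2.01 (SE 0.41, edgeR adjusted p = 0.00966). Type VI collagen was higher too. Col6a1, Col6a2 and Col6a3 were higher by 1.94, 2.26 and 1.80 on the log2 scale (edgeR adjusted p = 0.0161, 0.00615 and 0.00487).

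Other non-fibrillar chains passed at low levels or with a wide spread within the oral group. Col6a5 was read at 2.76 to 27.5 CPM in oral and 0.912 to 2.32 CPM in pancreatic WT tumors (log2 fold change 2.81, edgeR adjusted p = 0.0254). Col28a1, a small collagen with von Willebrand factor A domains, was read at 0.339 to 6.49 CPM in oral and 0.0986 to 0.283 CPM in pancreatic tumors (log2 fold change 3.80, edgeR adjusted p = 0.0237). The counts of Col28a1 were 11 to 294 in oral and 4 to 10 in pancreatic WT tumors. It passed the filter of 10 counts in 2 tumors only through the oral tumors, where it was high. Col28a1 is counted above among the members called higher and among those without overlap. Col25a1 and Col26a1 stayed under 3 CPM in all 8 tumors and were higher in oral tumors by 1.82 and 1.45 on the log2 scale (edgeR adjusted p = 0.00701 and 0.0390). Col12a1, a chain that sits on the surface of fibrils, was high in both tissues and higher in oral tumors by 2.26 (SE 0.43, edgeR adjusted p = 0.00717).

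The basement membrane class split. Col17a1, which anchors basal keratinocytes, was read at 525, 405, 348 and 560 CPM in oral WT tumors 1 to 4 and at 695, 1414, 1188 and 1304 CPM in pancreatic WT tumors 1 to 4. Every oral tumor lay below every pancreatic tumor (log2 fold change -1.32, SE 0.25, edgeR adjusted p = 0.00621). Col18a1, the proteoglycan collagen from which endostatin is cleaved, went the other way, from 102 to 149 CPM in oral and 28.1 to 58.7 CPM in pancreatic tumors (log2 fold change 1.55, SE 0.25, edgeR adjusted p = 0.00357). The network chains Col4a1 and Col4a2 differed by -0.25 and -0.30 and did not pass (edgeR adjusted p = 0.47 and 0.51). Col23a1, a transmembrane collagen of the other class, was the second member lower in oral tumors, at 8.72 to 24.7 CPM against 27.0 to 48.0 CPM (log2 fold change -1.05, edgeR adjusted p = 0.0377).

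**Figure D3:**
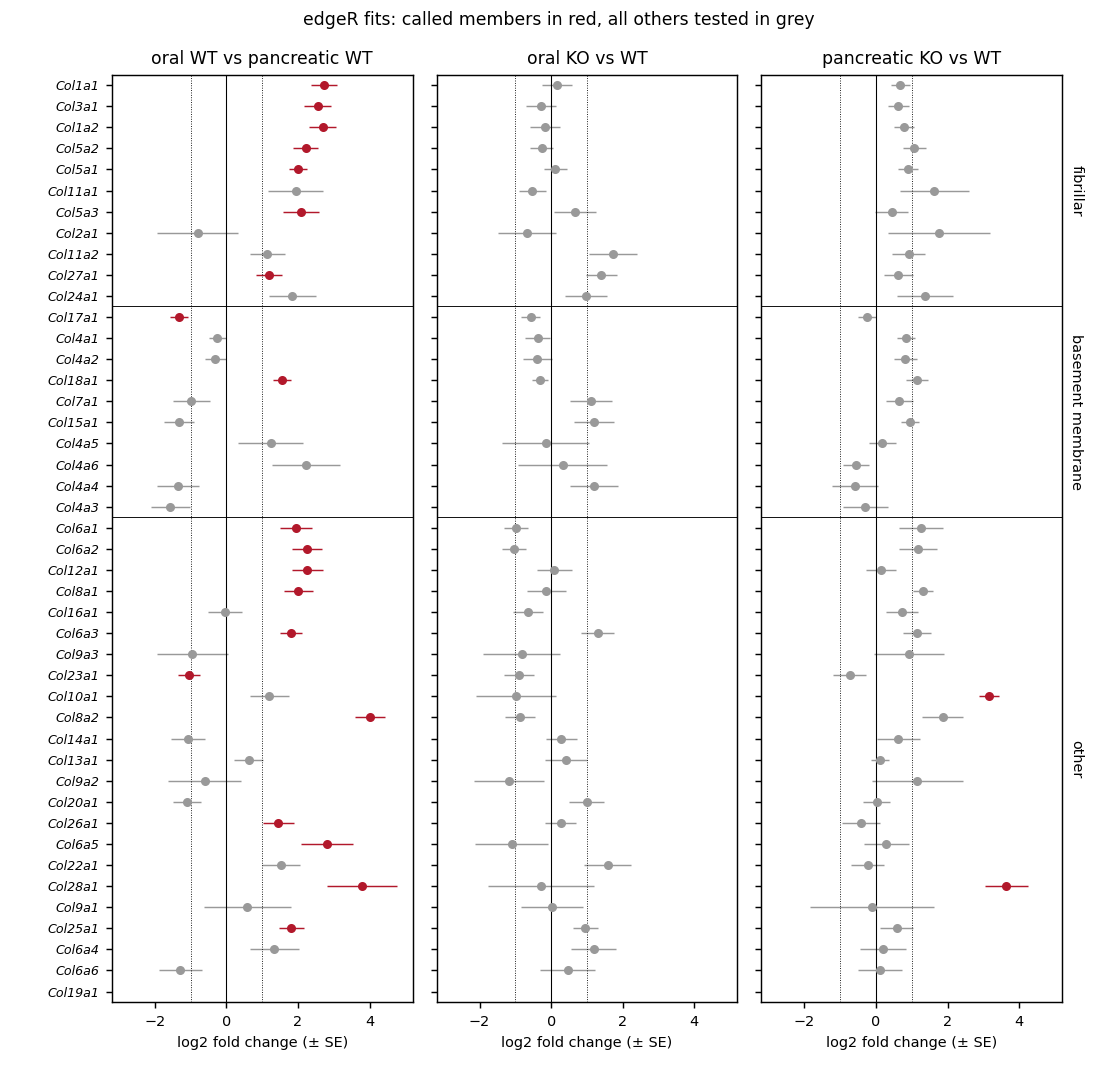
Log2 fold change with its standard error for each member tested, in oral WT against pancreatic WT, oral KO against WT and pancreatic KO against WT tumors, with dotted lines at -1 and 1 and members past the threshold in red. In the tissue panel 20 of 43 members are red, in the oral KO panel 0 of 42 and in the pancreatic KO panel 2 of 43.

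Under each of 16 alternatives, 13 of the 20 calls stood, 12 of them higher and Col17a1 lower. The 7 that did not were Col5a3, Col6a5, Col8a1, Col23a1, Col26a1, Col27a1 and Col28a1. Markers of other cells moved with the tissue. The 10 fibroblast markers summed to 2072 to 2678 CPM in oral and 191 to 380 CPM in pancreatic WT tumors, with 6 of 10 called higher, and the 7 osteoblast and odontoblast markers summed to 104 to 372 CPM in oral and 7.19 to 9.48 CPM in pancreatic WT tumors, with 6 of 6 tested called higher. Basal keratinocyte markers summed to 4302 to 7936 CPM in oral and 8257 to 14766 CPM in pancreatic WT tumors, with 3 of 7 called lower and 1, Krt15, called higher. Their part in these differences was not tested.

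In the pancreas, KO tumors were then compared with WT tumors to ask what the deletion changed. The same 4 WT tumors served in the comparison of tissues. Of 43 members, 2 were higher in KO tumors, Col10a1 and Col28a1, and none was lower. Of all genes tested, 0.629% were called, 0.337% higher and 0.292% lower. The log2 fold change was positive in 35 of 43 members, among them all 11 fibrillar chains, with a median of 0.68 over the members and 0.022 over all genes. At an unadjusted p under 0.05 there were 13 members, all higher, and 15.9% of all genes. DESeq2 called 6 members, all higher, which added Col5a2, Col8a1, Col8a2 and Col18a1, against 4.52% of all genes, 1.58% higher and 2.94% lower.

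Col10a1, the collagen of hypertrophic cartilage, had the clearest difference between genotypes. It was read at 1.65, 3.48, 1.73 and 2.66 CPM in pancreatic WT tumors 1 to 4, from 63 to 123 counts, and at 23, 19.7 and 20.6 CPM in pancreatic KO tumors 1 to 3, from 1761 to 2632 counts. The KO tumors stood close together and far above the WT tumors. The log2 fold change was 3.16 (SE 0.29, edgeR adjusted p = 0.00425), and leaving out each tumor in turn gave 3.01 to 3.40. The call was lost only in 1 fit of all 13 tumors (edgeR adjusted p = 0.113). Col10a1 lies within the gene Nt5dc1 on the opposite strand, and the authors counted reads by strand.

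Col28a1 was read at 0.236, 0.283, 0.114 and 0.0986 CPM in pancreatic WT tumors 1 to 4, from 4 to 10 counts, and at 0.804, 2.53 and 3.42 CPM in KO tumors 1 to 3, from 92 to 395 counts. All KO tumors were above all WT tumors. The gene passed the filter of 10 counts in 2 tumors only through the KO tumors, where it was high. The log2 fold change was 3.64 (SE 0.59, edgeR adjusted p = 0.0453). The call stood under 5 of 15 alternatives. Among others it was lost with counts thinned to the smallest library, with protein-coding genes alone and in 1 fit of all 13 tumors (edgeR adjusted p = 0.0524, 0.0863 and 0.217), and on leaving out any tumor other than KO tumor 1 (edgeR adjusted p = 0.0621 to 0.125).

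**Figure D4:**
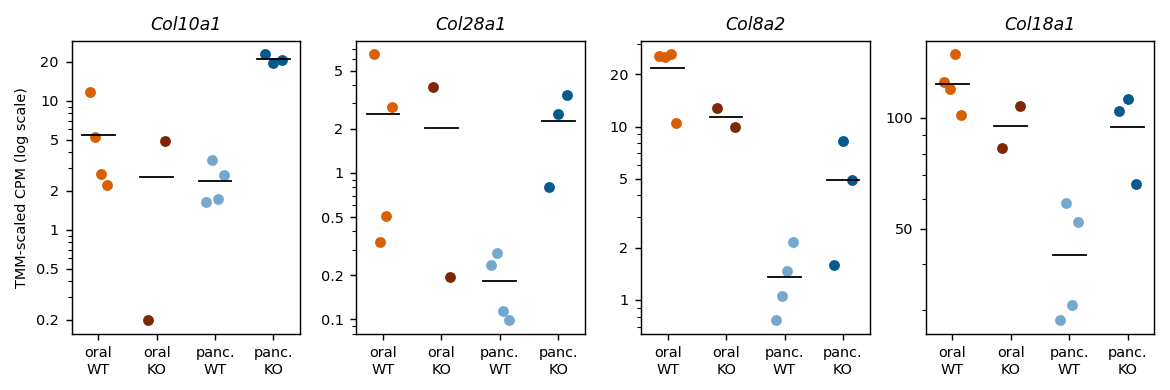
TMM-scaled CPM (log axes, each with its own range) of Col10a1, Col28a1, Col8a2 and Col18a1, with 1 point per tumor and a line at the mean of each group. The 3 pancreatic KO tumors lie between 19.7 and 23 CPM for Col10a1, above all 4 pancreatic WT tumors, whereas the oral groups overlap.

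Further members stood higher in KO than in WT tumors without passing the threshold. In 8 members, Col1a2, Col5a1, Col5a2, Col8a1, Col10a1, Col15a1, Col18a1 and Col28a1, every KO tumor lay above every WT tumor, and in 0 members below, whereas 6.81% and 8.77% of all genes did so. Of the 8, only Col10a1 and Col28a1 were called with edgeR. Col8a1 was read at 22.2, 32.1, 43.7 and 55.6 CPM in WT tumors 1 to 4 and at 92.1, 103 and 86.5 CPM in KO tumors 1 to 3 (log2 fold change 1.30, SE 0.28, edgeR adjusted p = 0.0867). Col18a1 was read at 28.1, 58.7, 30.9 and 52.2 CPM in WT and at 105, 112 and 65.9 CPM in KO tumors (log2 fold change 1.16, SE 0.31, edgeR adjusted p = 0.131). The groups are apart in both genes, with the nearest tumors of Col18a1 at 58.7 and 65.9 CPM.

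Type I and type IV chains moved less. Col1a1 was read at 447, 546, 779 and 804 CPM in WT tumors and at 1013, 1310 and 759 CPM in KO tumors (log2 fold change 0.68, SE 0.25, edgeR adjusted p = 0.24). Col4a1 was read at 243, 370, 314 and 490 CPM in WT and at 609, 808 and 473 CPM in KO tumors (log2 fold change 0.84, SE 0.26, edgeR adjusted p = 0.18). In both genes KO tumor 3 fell within the WT range. Col17a1 had a log2 fold change of -0.25 (SE 0.25, edgeR adjusted p = 0.67), with WT tumors at 695 to 1414 CPM and KO tumors at 819 to 1115 CPM.

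The spread of the cartilage chains was wide in both genotypes. Col2a1 was read at 0.577, 36.5, 1.85 and 29.3 CPM in pancreatic WT tumors 1 to 4 and at 12, 147 and 13.6 CPM in KO tumors 1 to 3. Col11a1, its partner in cartilage fibrils, was read at 5.70, 75.1, 15 and 90.4 CPM in WT and 50.4, 272 and 109 CPM in KO tumors. WT tumors 2 and 4 were high in both genes, as was KO tumor 2, and the groups overlapped. Neither passed (edgeR adjusted p = 0.60 for Col2a1 and 0.46 for Col11a1).

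Without KO tumor 2, the tumor with the most collagen among the pancreatic ones, 28 of 43 log2 fold changes were positive with a median of 0.48, and Col10a1 alone was called. Markers of other cells also differed between the pancreatic tumors, but not all were highest in KO tumor 2. The fibroblast and endothelial sums were highest in KO tumor 2, and the chondrocyte and acinar sums in KO tumor 3. The osteoblast and odontoblast sum was highest in KO tumor 1. The 9 chondrocyte markers summed to 10.4 to 56.6 CPM in WT and to 115, 130 and 721 CPM in KO tumors 1 to 3. Most of that sum was Hapln1, a link protein, at 113, 73.3 and 715 CPM, while Acan, the aggrecan core protein, was at 1.67, 51.5 and 5.0 CPM and Matn1 was at 0.101 CPM or less. Of 6 chondrocyte markers tested, 4 had a positive and 2 a negative log2 fold change, and 0 were called. All 8 endothelial markers had a positive log2 fold change, with a median of 0.53, 3 at an unadjusted p under 0.05 and 0 called. The fibroblast markers summed to 191 to 380 CPM in WT and 351 to 639 CPM in KO tumors, with 1 of 10 called, Mfap5, which was higher. Of these 10 markers, 9 had a positive log2 fold change, with a median of 0.92. At an unadjusted p under 0.05, 5 were higher and 1 lower, and DESeq2 called 3, all higher. Of 5 osteoblast and odontoblast markers tested, 4 had a positive log2 fold change, 3 of them at an unadjusted p under 0.05, with a median of 0.99, and 1 was called, Bglap, which was lower. The pancreatic acinar markers summed to 227 CPM in KO tumor 3 and to 13.6 CPM or less in the other 6 tumors. Their part in the collagen values was not tested, and neither was that of the deeper KO libraries beyond the thinning given above.

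In the oral tumors no member passed. Of 42 members tested, 0 were called with edgeR, whereas 8.81% of all genes were called higher and 2.89% lower in KO tumors. All members code for protein, and a fit of protein-coding genes alone called 27 of 16352 genes and 0 members. At an unadjusted p under 0.05 there were 7 members, 5 higher and 2 lower, and 35.4% of all genes. DESeq2 called 3 members higher, Col6a3, Col11a2 and Col27a1, and 2 lower, Col6a1 and Col6a2, against 11.7% and 6.26% of all genes. The median log2 fold change was -0.05 over the members, -0.0030 over all genes and -0.21 over protein-coding genes. A fit of protein-coding genes alone moved that last median to -0.02 and the median of the members to 0.14.

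The chains of type VI collagen had log2 fold changes of opposite sign, none past the threshold. Col6a1 was read at 468, 462, 604 and 322 CPM in oral WT tumors 1 to 4 and at 161 and 287 CPM in oral KO tumors 1 and 2 (log2 fold change -0.98, SE 0.34, edgeR adjusted p = 0.0861). Col6a2 was read at 500, 505, 755 and 408 CPM in WT and 197 and 307 CPM in KO tumors (log2 fold change -1.04, SE 0.32, edgeR adjusted p = 0.0702). Both KO tumors lay below all 4 WT tumors in both genes. Col6a3, the long chain of the same heterotrimer, was read at 274, 252, 148 and 130 CPM in WT and 242 and 707 CPM in KO tumors, where the groups overlapped (log2 fold change 1.31, SE 0.46, edgeR adjusted p = 0.0953). Leaving out each tumor in turn gave 0.38 to 1.87 for Col6a3.

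Few other members parted the oral genotypes. Col4a4, Col7a1, Col20a1, Col25a1 and Col27a1 were higher in both KO tumors than in all WT tumors, and Col6a1 and Col6a2 were lower, against 22.4% and 25.5% of all genes. Col27a1 was read at 16.2, 22.8, 7.86 and 10.3 CPM in WT and 45.8 and 25.1 CPM in KO tumors (log2 fold change 1.41, SE 0.44, edgeR adjusted p = 0.0725). Col11a2, a chain of cartilage fibrils, was read at 8.61 to 29.4 CPM in WT tumors and at 86.1 and 19.4 CPM in KO tumors, so that KO tumor 1 alone was high (log2 fold change 1.72, SE 0.67, edgeR adjusted p = 0.121). Type I collagen was little apart. Col1a1 was read at 4423 and 4577 CPM in the KO tumors, inside the WT range of 3072 to 7430 CPM (log2 fold change 0.17, SE 0.42, edgeR adjusted p = 0.80), and Col17a1 at 239 and 349 CPM, against 348 to 560 CPM in WT tumors (log2 fold change -0.57, SE 0.27, edgeR adjusted p = 0.17).

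The oral comparison rests on 2 KO tumors that differed in make-up from the WT tumors. Skeletal muscle markers summed to 5609 and 3103 CPM in the KO tumors and to 15.6 to 574 CPM in the WT tumors, with 1 of 12 called higher, and the fibroblast markers to 1194 and 1175 CPM in KO and 2072 to 2678 CPM in WT tumors, with 2 of 10 called lower. Of the chondrocyte markers 1 of 7 tested was called, Epyc, which was lower. The fibroblast genes called were the small proteoglycans Dcn and Lum, which bind collagen fibrils, at 812 to 979 and 234 to 547 CPM in WT and at 37.1 to 123 and 58.9 to 120 CPM in KO tumors, with log2 fold changes of -3.40 and -2.09 (edgeR adjusted p = 0.0196 and 0.0347). Over the whole fibroblast list 5 log2 fold changes were positive and 5 negative, with a median of 0.0073. Without KO tumor 1, the tumor with the low share of protein-coding counts, 48 genes were called in all and 0 members, and Col4a1 and Col4a2 turned from -0.38 and -0.39 to 0.07 and 0.12. The part of the muscle markers in the collagen values was not tested.

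The interaction of tissue and genotype tested whether the KO minus WT difference differed between the tissues. It is given as the pancreatic minus the oral log2 fold change over all 13 tumors. Of 43 members, 3 passed, all positive, Col8a2, Col10a1 and Col18a1, whereas 4.85% of all genes were called positive and 7.41% negative. At an unadjusted p under 0.05 there were 10 members, all positive, and 34.0% of all genes. The difference was 4.18 for Col10a1 (SE 1.18, edgeR adjusted p = 0.0369), 2.79 for Col8a2 (SE 0.80, edgeR adjusted p = 0.0377) and 1.53 for Col18a1 (SE 0.42, edgeR adjusted p = 0.0319).

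Each of the 3 genes had a negative log2 fold change in the oral and a positive one in the pancreatic tumors. Col10a1 was read at 11.7, 5.26, 2.72 and 2.21 CPM in oral WT and at 0.199 and 4.92 CPM in oral KO tumors, the lower of these from 2 counts. Its oral log2 fold change of -0.99 ranged from -4.64 to -0.094 leaving out each tumor in turn. Col8a2 was read at 12.8 and 9.99 CPM in oral KO tumors, near the 10.5 CPM of WT tumor 4 and below the other WT tumors, while in the pancreas it was read at 0.761 to 2.17 CPM in WT and at 1.58, 8.26 and 4.91 CPM in KO tumors. Col18a1 was read at 125, 120, 149 and 102 CPM in oral WT and at 82.8 and 108 CPM in oral KO tumors. In the same test 1 of 9 chondrocyte markers was called, Hapln1, and 2 of 10 fibroblast markers, Dcn and Lum, all positive, while all 12 skeletal muscle markers were negative and 2 were called. The part of these markers was not tested. The median over protein-coding genes was 0.28, and 0.08 in a fit of those genes alone. None of these 3 calls stood under every alternative. A fit of protein-coding genes alone called 0 members, and so did the fits without oral KO tumor 1, without pancreatic WT tumor 3 and without pancreatic KO tumor 2, leaving out oral WT tumor 1 or 3, pancreatic WT tumor 1 or pancreatic KO tumor 3 gave 1 member, leaving out oral WT tumor 2 gave Col18a1 positive and Col4a6 negative, and leaving out pancreatic WT tumor 4 gave 7 and DESeq2 gave 8, all positive, against 7.77% of all genes.

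The ratios of levels per kilobase of chains that join in 1 trimer or fibril were compared between groups with 30 exact permutation tests. The ratio of Col1a1 to Col1a2 stayed between 1.27 and 1.83 in all tumors while the level of Col1a1 ranged from 447 to 7430 CPM. In the oral KO tumors it was 1.79 and 1.83, above the 1.39 to 1.51 of the oral WT tumors. The ratio of Col4a1 to Col4a2 stayed between 1.34 and 1.94 and that of Col6a2 to Col6a1 between 0.716 and 1.06. These pairs held their ratio within a narrow band, although their levels moved. So did Col3a1 to Col1a1, chains of different trimers, at 0.563 to 0.962. Other partner chains did not, with Col4a5 to Col4a6 at 2.79 to 16.3, Col9a3 to Col9a2 at 2.13 to 24.2 and Col8a1 to Col8a2 at 3.14 to 49.4. Col3a1 to Col1a1 and Col4a5 to Col4a6 were lower in both oral KO tumors than in all oral WT tumors (exact permutation adjusted p = 0.343 for each).

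The long chain of type VI collagen did not keep a set ratio. Col6a3 to Col6a1 was 0.238, 0.222, 0.0997 and 0.164 in oral WT tumors 1 to 4 and 0.607 and 0.999 in oral KO tumors 1 and 2. Both KO tumors lay above all WT tumors, by 2.19 on the log2 scale (two-sided exact permutation p = 0.133, the smallest that 2 against 4 tumors can give, adjusted p = 0.343). In the pancreas the ratio was 0.115 to 0.444 in WT and 0.127 to 0.303 in KO tumors. Leaving out each oral tumor in turn gave differences of 1.83 to 2.55, an alternative chosen after the ratios were seen.

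**Figure D5:**
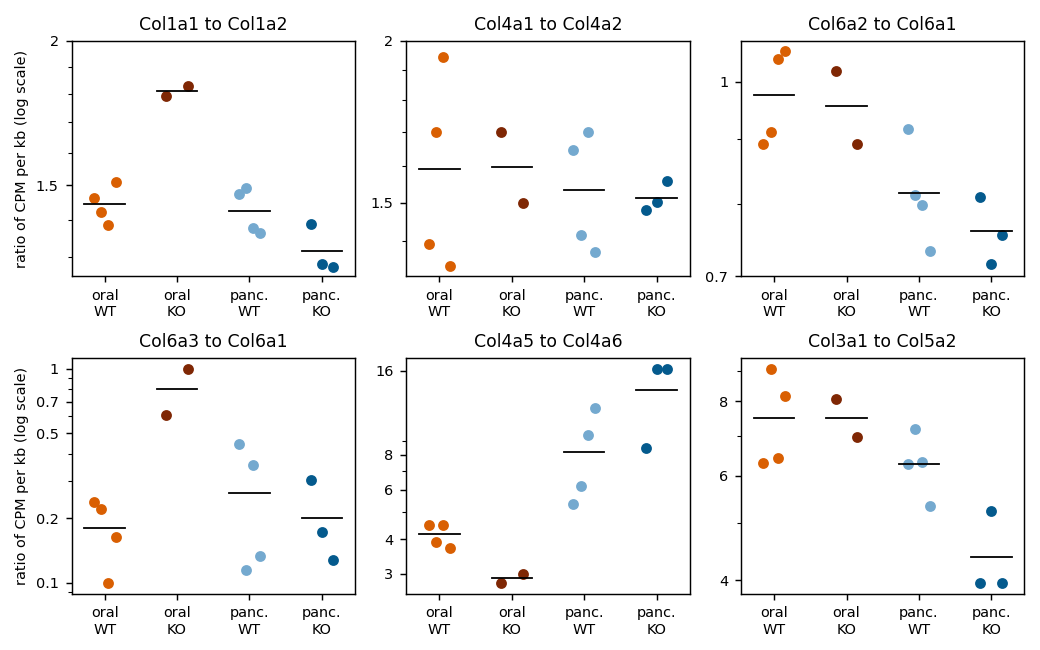
Ratio of the levels per kilobase (log axes, each with its own range) of 6 chain pairs, with 1 point per tumor and a line at the mean of each group. The ratio of Col6a3 to Col6a1 is 0.607 and 0.999 in the oral KO tumors and 0.238 or less in the oral WT tumors, and Col1a1 to Col1a2 stays between 1.27 and 1.83.

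Ratios also parted the tissues. Col4a5 to Col4a6, chains of the same type IV trimer, was 3.71 to 4.51 in oral WT and 5.35 to 11.8 in pancreatic WT tumors, a log2 difference of -0.91, and Col8a1 to Col8a2 was 3.14 to 8.88 in oral and 21.7 to 26.0 in pancreatic WT tumors, a log2 difference of -2.08. Neither overlapped, and the two-sided exact permutation p was 0.0286 for each, which 4 against 4 tumors cannot go below, with adjusted p = 0.343. In the pancreas Col3a1 to Col5a2 was 5.33 to 7.20 in WT and 3.96 to 5.23 in KO tumors, a log2 difference of -0.52 (two-sided exact permutation p = 0.0571, the smallest for 3 against 4 tumors, adjusted p = 0.343). With groups of this size no adjusted p under 0.05 was possible over the 30 tests.

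Among the members, 8 pairs are neighbours within 200 kb on GRCm38. The type IV genes stand head to head, Col4a1 and Col4a2 on chromosome 8 with an overlap of 22 bases, Col4a4 and Col4a3 on chromosome 1 with 71 bases between them, and Col4a6 and Col4a5 on chromosome X with 1308 bases between them. Col3a1 and Col5a2 lie tail to tail on chromosome 1, 24.6 kb apart, and both were higher in oral than pancreatic WT tumors. The members of a head-to-head pair had the same sign between oral and pancreatic WT tumors, with log2 fold changes of -1.35 for Col4a4 and -1.56 for Col4a3, and of 1.24 for Col4a5 and 2.23 for Col4a6, none of which passed (edgeR adjusted p = 0.13, 0.070, 0.36 and 0.13). Without oral WT tumor 2, Col4a5 had -0.47, whereas Col4a6 stayed at 0.43 or more leaving out each tumor in turn. In KO against WT tumors Col4a5 and Col4a6 had opposite signs, at -0.15 and 0.32 in oral and 0.18 and -0.56 in pancreatic tumors. The other head-to-head pairs had the same sign there wherever both genes were tested. Few sequences were shared between members and other genes. The largest share of 31-base sequences found in another gene was 4.31%, in Col6a6.

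The enzymes and receptors that serve collagen were read from the same fits, in which 16.5% of all genes were called between the tissues. Between oral and pancreatic WT tumors, 4 of 5 lysyl oxidases, the crosslinking enzymes, were higher in oral tumors and 0 lower, Lox by 1.47, Loxl1 by 1.37, Loxl2 by 1.55 and Loxl3 by 2.55 on the log2 scale (edgeR adjusted p = 0.00219, 0.0180, 0.00714 and 0.00167). Of 7 procollagen proteinases and enhancers tested, 4 were higher, the proteinases Bmp1, Adamts2, Adamts3 and Adamts14, and 1 was lower, the enhancer Pcolce2. Of 10 receptors and uptake genes, 4 were higher, the integrin chains Itga10 and Itga11 and the receptors Ddr2 and Mrc2, and the integrin chain Itga2 was lower. Of 13 hydroxylase genes, P3h1 and P3h3 were higher and P4ha2 lower, and of 10 genes for glycosylation, folding and export, Fkbp10 and Fkbp14 were higher. The medians of these 5 lists were 1.47, 1.46, 0.32, -0.24 and 0.23 on the log2 scale, in the order named.

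In KO against WT tumors the same lists were counted. In pancreatic tumors 0 of the 45 tested were called with edgeR at an adjusted p under 0.05, with 13 at an unadjusted p under 0.05, all higher in KO tumors, and 2 called with DESeq2, where the shares of all genes were 0.629%, 15.9% and 4.52%. In oral tumors 2 of 45 were called, both lower in KO tumors, against 11.7% of all genes. The oral fit of protein-coding genes alone called 27 of 16352 genes. The 2 were Ppib, a prolyl isomerase of the hydroxylase complex, by -1.14 (SE 0.23, edgeR adjusted p = 0.0272) and Pdia3, a disulfide isomerase, by -1.27 (SE 0.25, edgeR adjusted p = 0.0272). Ppib was read at 168, 186, 197 and 147 CPM in oral WT and 60.8 and 89.4 CPM in oral KO tumors, which did not overlap. In the interaction, 6 of the 45 genes were called, against 12.3% of all genes, all positive, P3h1, P3h3, Ppib, Pdia3, Adamts2 and Itgb1.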

How the data were processed

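RNA from 13 whole tumors was depleted of ribosomal RNA and sequenced with a stranded total RNA kit. Per the labels and the study's methods, the authors trimmed reads with Trim Galore 0.6.10, checked them with FastQC 0.12.1, quantified transcripts of GENCODE M23 (GRCm38) by strand with kallisto 0.50.0, summed them to genes and deposited estimated counts per gene, of which 27.3% of values were not whole. Groups came from the labels.

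Counts were rounded and fitted per comparison with edgeR 4.0.16 (R 4.3.3, quasi-likelihood test, TMM factors, Benjamini-Hochberg adjustment over all genes tested). Genes needed 10 counts in 2 tumors of the fit. A call needed an adjusted p below 0.05 with a log2 fold change beyond 1 in size. DESeq2 1.42.0 and apeglm 1.24.0, other scalings, no filter, protein-coding genes alone, thinned counts, 1 fit of all tumors, a replicate block and each tumor left out in turn were the alternatives. The main edgeR fit and the DESeq2 fit of each comparison were run on simulated counts with the same dispersion for every gene. The other alternatives were not run on simulated counts. Gene symbols, gene types, lengths and positions came from GENCODE M21, in which 55141 of 55332 genes were found, since M23 was not used here. The collagen classes were assigned by known structure. Members reported in full were those called, the 3 highest per class and the chains of 1 trimer or gene pair. Col2a1, Col11a1, Col11a2 and others were named after their values were seen. Members and lists were chosen with earlier results of these data known.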

Additional observations from a re-analysis of the deposited data

Results flagged for a closer look

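Among 113 sets of 4 tumors examined, 13 held a tumor far from the other 3. The rule marks about 1 in 20 sets when values are independent and normally distributed. These sets are not independent, since chains vary together and the sums hold chains also examined alone, so 13 cannot be set against that rate. Of the 13, 9 were oral WT tumor 2. In that tumor Col1a1 was at 7430 CPM (others 3072 to 3340), Col1a2 at 4714 CPM (others 1892 to 2052) and Col3a1 at 5436 CPM (others 2161 to 2687). The summed fibrillar chains were at 19336.5 CPM (others 8398 to 8968) and all members together at 23325 CPM (others 11408 to 12878). Chains of lower level stood apart there too, Col4a5 at 38.9 CPM (others 1.68 to 7.24), Col4a6 at 10.1 CPM (others 0.380 to 1.63), Col6a5 at 27.5 CPM (others 2.76 to 6.59) and Col24a1 at 21.3 CPM (others 6.46 to 7.77).

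Single members stood apart in other tumors. Col5a3 was at 185 CPM in oral WT tumor 1 (others 48.5 to 70.7), Col6a4 at 1.93 CPM in oral WT tumor 3 (others 0.508 to 0.735) and Col26a1 at 1.76 CPM in pancreatic WT tumor 2 (others 0.462 to 0.652). Col8a2 was low in oral WT tumor 4, at 10.5 CPM (others 25.2 to 26.2).

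The KO minus WT difference of 3 of 43 members passed the interaction test, with pancreatic minus oral log2 fold changes of 2.79 for Col8a2, 4.18 for Col10a1 and 1.53 for Col18a1. Of all genes, 4.85% were called positive and 7.41% negative. None of the 3 calls stood under every alternative.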

How the results depend on the processing

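Between oral and pancreatic WT tumors the number of genes called stayed within 1.5 times its value of 3832 under every alternative run (2821 to 4102 leaving out each tumor), and 14 to 20 members were called leaving out each tumor. In the pancreas 155 genes and 2 members were called. These became 239 genes with no filter, 10 genes and 1 member with protein-coding genes alone, 1115 and 6 with DESeq2, 889 and 4 with apeglm, 92 and 0 in 1 fit of all 13 tumors, 1 member with thinned counts, and 43 to 269 genes and 1 to 2 members leaving out each tumor. In oral tumors 2614 genes and 0 members were called. These became 1 member with no filter, 27 genes with protein-coding genes alone, 4004 genes and 5 members with DESeq2, 3 members with apeglm, 5082 genes in 1 fit, and 36 to 2616 genes and 0 to 1 members leaving out each tumor. In the interaction 3168 genes and 3 members became 791 and 0 with protein-coding genes alone, 8 members with DESeq2, 1852 genes with thinned counts, and 1510 to 4162 genes and 0 to 7 members leaving out each tumor. Where 1 oral KO tumor remained, it was assumed to vary like the other group. The cause of these moves was not tested.

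Whether the replicate numbers pair the tumors could not be settled. Same-number correlations were 0.317, -0.025 and -0.069 in the pancreas and -0.08 and -0.038 in oral tumors. Different-number correlations in the pancreas ranged from -0.278 to 0.164. With 2 oral KO tumors, deviations from their mean mirror each other, so that the oral values cannot show pairing or its absence. The replicate block gave 65 genes in oral tumors, 590 genes and 9 members in the pancreas, and 1460 genes and 1 member in the interaction. With the block, Col28a1 lost its call in the pancreas (edgeR adjusted p = 0.0725), and Col2a1 between tissues turned from -0.80 to 0.56.

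Oral log2 fold changes near 0 changed sign, Col1a2 to 0.027 with protein-coding genes alone and -0.28 to 0.25 leaving out each tumor, Col3a1 over -0.43 to 0.10, Col4a1 over -1.01 to 0.069 and Col4a2 over -1.15 to 0.12. Leaving out each tumor gave -0.38 (without KO tumor 2) to 2.45 for Col2a1 in the pancreas, and -0.47 (without oral WT tumor 2) to 1.60 for Col4a5 between tissues. Without TMM factors the mean fibrillar sum of the oral KO tumors was 11028 CPM in place of 10383. With mean transcript lengths the median ratios were 2.03 for Col1a1 to Col1a2, 1.95 for Col4a1 to Col4a2, 0.618 for Col5a1 to Col5a2, 0.596 for Col6a2 to Col6a1 and 8.74 for Col3a1 to Col5a2. Of 1402 other values under alternatives, 1196 kept their direction and side of the threshold, 149 lost a call, 49 gained one and 8 changed sign.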
